A study of Homo sapiens with 6 samples.

Results

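The Hippo pathway genes described here are YAP1, WWTR1, TEAD1, TEAD2, TEAD3, TEAD4, LATS1, LATS2, CYR61 and CTGF, 10 of the 58735 genes of the deposited expression table. They were chosen by name for their known roles, with earlier results of these data known. All 10 were found under these symbols, CYR61 and CTGF being the older names of CCN1 and CCN2. All 10 were among the 13796 genes tested, those whose FPKM averaged 1 or more across the 6 libraries, where FPKM is the number of reads on a gene scaled to its length in kilobases and to the total of the library. CTGF reached that level only through the siPSCA libraries, and counts that include it are read with that in mind. The cells were HCT116SCs, which carry CD44 and CD326 and were sorted with magnetic beads from the human colorectal cancer line HCT116 and grown as tumour spheres without serum, with EGF and bFGF at 20 ng/mL each and B27. In both groups these cells received siRNA with a liposomal reagent and were harvested after 48 h, NC siRNA in the control group (NC, n = 3 libraries) and siRNA against the gene PSCA, labelled PSCA knockdown, in the other (siPSCA, n = 3 libraries). All libraries derive from 1 cell line, no source states which of the PSCA siRNAs went into the sequenced cells, and nothing states that the 3 libraries of a group came from separate cultures, so p-values measure only the spread between libraries, which may be technical.

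In the Hippo pathway the kinases MST1 and MST2 (genes STK4 and STK3), with the scaffold SAV1, activate LATS1 and LATS2, which act with MOB1 proteins. LATS kinases phosphorylate the coactivators YAP (gene YAP1) and TAZ (gene WWTR1), which then stay in the cytoplasm or are degraded. Unphosphorylated YAP and TAZ enter the nucleus and bind the TEAD transcription factors, which read a short DNA motif and switch on targets such as CYR61 and CTGF. In the intestinal epithelium the pathway is known for its part in regeneration and in stem cell growth. Most of this control acts on proteins, through phosphorylation and location, which RNA levels do not measure.

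CTGF is a commonly used readout of TEAD activity, and the 250 bases ahead of its RefSeq start are shown because they hold 3 copies of the TEAD core motif GGAATG, printed in capitals. The window lies at chr6:131951373-131951622 on the minus strand of GRCh38.p14, 5′ to 3′ toward the gene.
CTGF: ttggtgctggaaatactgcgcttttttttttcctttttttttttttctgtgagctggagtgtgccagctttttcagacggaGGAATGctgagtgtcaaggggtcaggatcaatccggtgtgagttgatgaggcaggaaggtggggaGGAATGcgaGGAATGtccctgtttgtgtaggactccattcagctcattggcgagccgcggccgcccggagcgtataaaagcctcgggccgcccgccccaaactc
The copies begin 169, 104 and 95 bases before the start. The motif was sought as GGAATG and as its reverse complement CATTCC. Of 35116 RefSeq windows of 250 bases, 4175 (11.9%) held at least 1 copy and 28 (0.0797%) held at least 3. Of the 7 members with a window in that set, YAP1 was the only other with a copy, 162 bases before its start. Its window lies at chr11:102110197-102110446 on the plus strand and is shown for comparison with that of CTGF.
YAP1: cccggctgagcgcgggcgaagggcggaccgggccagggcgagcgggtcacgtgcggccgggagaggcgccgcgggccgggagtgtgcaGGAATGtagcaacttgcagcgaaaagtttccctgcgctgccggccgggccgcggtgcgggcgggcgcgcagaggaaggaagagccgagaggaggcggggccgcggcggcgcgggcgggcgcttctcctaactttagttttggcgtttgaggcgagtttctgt
These matches describe letters in the reference and do not show that a TEAD factor was bound in these cells. TEAD1, TEAD4 and CYR61 have no entry in that set.

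Reads on genes ranged from 16099716 to 17302219 per library, and 1 read on a 1-kilobase gene was worth an FPKM of 0.0549 to 0.0595. PSCA itself had 4, 12 and 15 reads in NC 1 to NC 3 and 9, 9 and 7 reads in siPSCA 1 to siPSCA 3, so its reads do not tell the groups apart, and the groups follow the labels. The log2 fold change of siPSCA against NC increased with the GC content of the transcript (Spearman's rho 0.66 over 13792 genes, which are not independent replicates), and NC 3 departed from NC 1 and NC 2 along the same axis (-0.56). The 10 genes, and the other pathway genes named with a fold change, are therefore given as deposited and again GC-adjusted. For the latter, a smooth trend on GC content and gene length had been removed from each library. Whether base composition is technical or goes with the treatment was not tested.

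**Figure D1:**
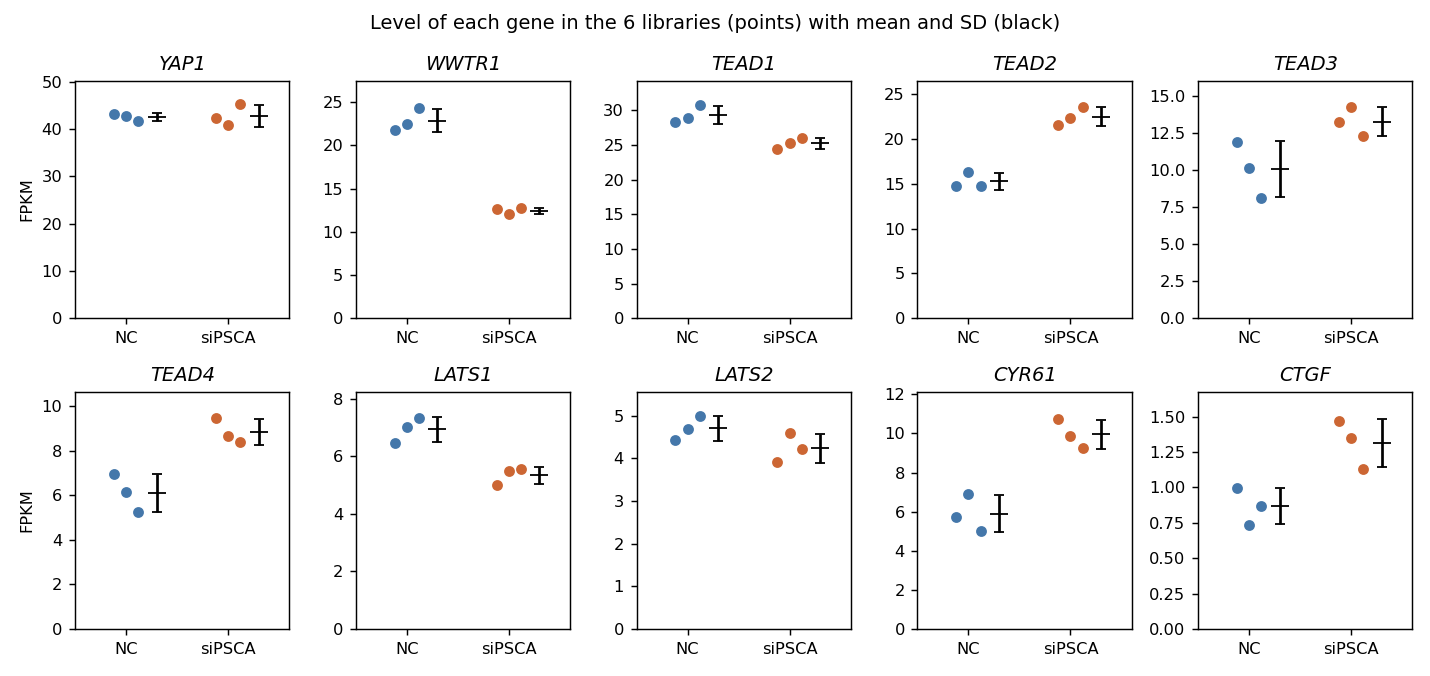
FPKM (y axes, starting at 0, a scale per gene) of the 10 genes in the 3 NC (blue) and 3 siPSCA (orange) libraries, with the mean and SD in black. The siPSCA points of WWTR1, TEAD1 and LATS1 lie below all NC points, those of TEAD2, TEAD3, TEAD4, CYR61 and CTGF lie above them, and those of YAP1 and LATS2 overlap.

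In the deposited values WWTR1, TEAD1 and LATS1 fell and TEAD2, TEAD4 and CYR61 rose in siPSCA, whereas YAP1, TEAD3, LATS2 and CTGF did not pass the test. In RNA of whole cultures, fewer cells that express a gene and less RNA per cell cannot be told apart. The test was that of limma on log2(FPKM + 1), with p-values adjusted by the Benjamini-Hochberg method over all 13796 genes and a threshold of 0.05. Of the 10 genes, 6 passed it, where 50.7% of all tested genes passed. Of these, 3 were higher, where 26.6% of all tested genes were, and 3 were lower, where 24.2% were. The median log2 fold change of the 10 genes was 0.16, against 0.01 over all genes tested. With an unadjusted p under 0.05 and an absolute log2 fold change over 0.5 the genes called were 3, namely WWTR1, TEAD2 and CYR61, where 24.9% of all genes met that rule. The FPKM of the groups did not overlap for 8 of the 10 genes, as for 64.5% of all genes, and each of these 8 had a 2-sided exact permutation p of 0.1, the smallest that 3 libraries against 3 can give. After GC adjustment 4 of the 10 passed, where 40.0% of 13792 genes did, and only WWTR1 and CYR61 passed both tests with the same sign. With limma-voom on the recovered reads 8 passed, the 6 named and TEAD3 and CTGF. These shares stand close to those of all genes, so the count is no result about the pathway as a whole.

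YAP and TAZ are related proteins with the same partners, and their transcripts behaved differently. YAP1 (ENSG00000137693; chromosome 11, 102110461 to 102233423, plus strand) had an FPKM of 43.3, 42.8 and 41.6 in NC 1 to NC 3 and of 42.4, 40.8 and 45.3 in siPSCA 1 to siPSCA 3. The groups overlapped, siPSCA 3 being the highest of all libraries and siPSCA 2 the lowest. The means were 42.5 ± 0.862 for NC and 42.8 ± 2.31 for siPSCA (SD, n = 3 each), with a log2 fold change of 0.01 (SE 0.05, 95% interval -0.12 to 0.14, limma adjusted p = 0.911). In the deposited values the interval thus bounds a change of YAP1 RNA at 0.14 on the log2 scale in either direction. Genes within 1 percentage point of its GC content of 43.5% had a median log2 fold change of -0.15, and the GC-adjusted log2 fold change of YAP1 was 0.20 (SE 0.07, limma adjusted p = 0.0528), and 0.14 with an adjusted p of 0.0452 when NC 3 was left out of that fit as well. YAP1 was the most abundant of the 10 genes, with 4510 to 5198 reads per library, and its mean FPKM stood above that of 94.4% of the genes tested.

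WWTR1 (ENSG00000018408; chromosome 3, 149517235 to 149736714, minus strand), which encodes TAZ, had the largest log2 fold change of the 10 genes and fell. Its FPKM was 21.8, 22.5 and 24.3 in NC and 12.6, 12.0 and 12.7 in siPSCA. Every siPSCA library lay below every NC library, and the gap between the groups exceeded the range within either. The means were 22.9 ± 1.33 for NC and 12.4 ± 0.378 for siPSCA (SD, n = 3 each), a ratio of 0.544. The log2 fold change was -0.83 (SE 0.06, 95% interval -0.97 to -0.69, limma adjusted p = 0.000524). The median log2 fold change was -0.24 among the 1246 tested genes within 1 percentage point of its GC content of 40.9%. After GC adjustment its log2 fold change was -0.49 (SE 0.04, limma adjusted p = 0.000632), and -0.51 without NC 3 (adjusted p = 0.000756). It passed the test in all 6 fits that left out 1 library, with log2 fold changes from -0.86 to -0.78. These values rest on 1793 to 3529 reads per library.

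The balance between the coactivator transcripts therefore differed between the groups. The summed FPKM of YAP1 and WWTR1 was 65.0, 65.3 and 65.9 in NC and 55.0, 52.8 and 58.0 in siPSCA. WWTR1 made up 33.5%, 34.5% and 36.9% of that sum in NC and 22.9%, 22.8% and 21.9% in siPSCA, with no overlap. YAP1 RNA exceeded WWTR1 RNA per length by 1.99, 1.90 and 1.71 times in NC and by 3.36, 3.40 and 3.57 times in siPSCA. The log2 ratio of WWTR1 to YAP1, both of them genes of low GC content, averaged -0.90 ± 0.11 for NC and -1.78 ± 0.05 for siPSCA (SD, n = 3 each). The difference of -0.89 had an exact permutation p of 0.1, and of 0.133 after adjustment over the 4 ratios compared. Leaving out a library moved the difference only between -0.93 and -0.82. The GC-adjusted log2 fold changes were -0.49 for WWTR1 and 0.20 for YAP1, and the ratio itself was not computed from GC-adjusted values.

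**Figure D2:**
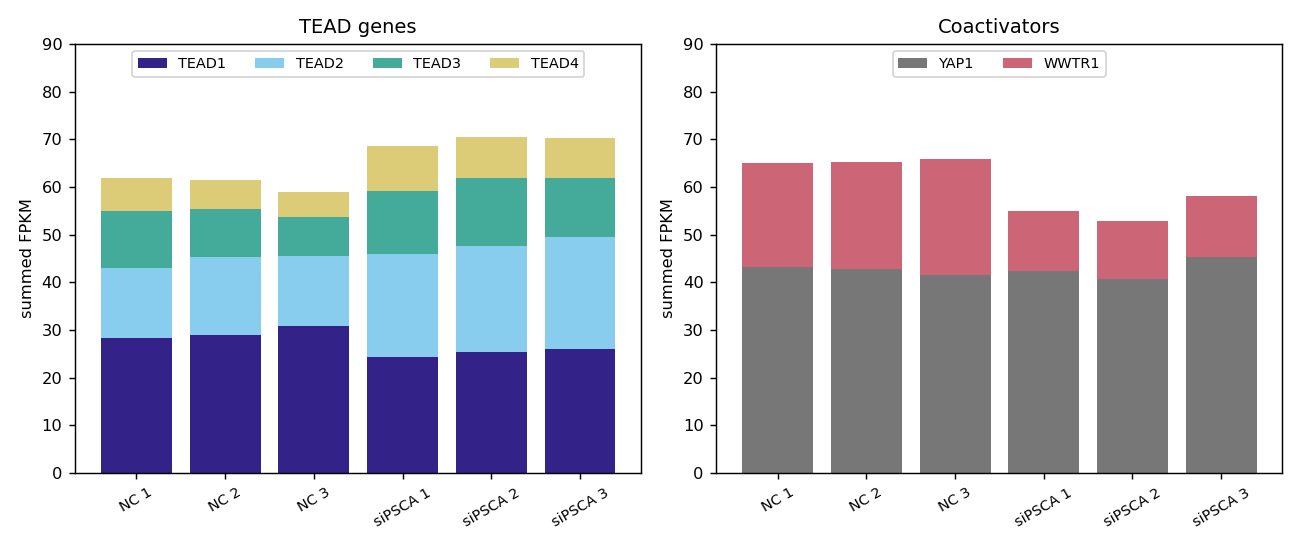
Summed FPKM (y axis) in each of the 6 libraries (x axis), split by gene, for the TEAD genes (left) and the coactivators (right). The TEAD1 segment is shorter and the TEAD2 segment longer in siPSCA, and the WWTR1 segment shrinks in siPSCA while the YAP1 segment stays between 40.8 and 45.3 FPKM.

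All 4 TEAD genes were expressed, and in the deposited values they did not move together. The TEAD proteins share a DNA-binding domain and the motif GGAATG, and all of them bind YAP and TAZ. TEAD1 (ENSG00000187079; chromosome 11, 12674591 to 12944483, plus strand), the most abundant, had an FPKM of 28.3, 28.9 and 30.8 in NC and 24.4, 25.3 and 26.0 in siPSCA. The siPSCA libraries all lay below the NC libraries, by a narrow margin. The means were 29.3 ± 1.31 for NC and 25.2 ± 0.814 for siPSCA (SD, n = 3 each), with a log2 fold change of -0.21 (SE 0.05, limma adjusted p = 0.0194). This fall of TEAD1 was not stable: it lost the call without siPSCA 1 or without siPSCA 2 (highest adjusted p 0.0739), and after GC adjustment the sign turned, at a log2 fold change of 0.14 (SE 0.04, limma adjusted p = 0.0288). Genes within 1 percentage point of its GC content of 41.3% had a median log2 fold change of -0.23.

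TEAD2 (ENSG00000074219; chromosome 19, 49340595 to 49362457, minus strand) showed the largest rise among the TEAD genes. Its FPKM was 14.8, 16.4 and 14.7 in NC and 21.6, 22.3 and 23.6 in siPSCA. The siPSCA libraries all lay above the NC libraries. The means were 15.3 ± 0.945 for NC and 22.5 ± 1.03 for siPSCA (SD, n = 3 each), a ratio of 1.47, with a log2 fold change of 0.53 (SE 0.06, 95% interval 0.38 to 0.68, limma adjusted p = 0.00177). The call held in all 6 fits without a library. Genes with a GC content near the 58.4% of TEAD2 had a median log2 fold change of 0.39, and its GC-adjusted log2 fold change was 0.17 (SE 0.07, limma adjusted p = 0.105). The gene CD37 overlaps the span of TEAD2 on the other strand with up to 735 reads in a library, and its FPKM was 7.51 in NC and 9.80 in siPSCA on average. Whether the reads were counted by strand is not given in the sources used here, so reads from the overlap of TEAD2 and CD37 cannot be told apart.

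TEAD4 (ENSG00000197905; chromosome 12, 2959330 to 3040673, plus strand), the least abundant TEAD gene, also rose. Its FPKM was 6.94, 6.14 and 5.24 in NC and 9.47, 8.67 and 8.38 in siPSCA, again without overlap. The means were 6.11 ± 0.852 for NC and 8.84 ± 0.563 for siPSCA (SD, n = 3 each), a ratio of 1.45, with a log2 fold change of 0.47 (SE 0.10, limma adjusted p = 0.0100). After GC adjustment it was 0.06 (SE 0.05, limma adjusted p = 0.376). TEAD4 has the highest GC content of the 10 genes, 60.4%, and tested genes within 1 percentage point of it had a median log2 fold change of 0.44. TEAD3 (ENSG00000007866; chromosome 6, 35473597 to 35497076, minus strand) had an FPKM of 11.9, 10.2 and 8.16 in NC and 13.3, 14.3 and 12.3 in siPSCA. These groups did not overlap either, but NC 3 lay well below NC 1 and the spread within NC was wide. With means of 10.1 ± 1.88 (SD, n = 3) and 13.3 ± 0.977 (SD, n = 3), the log2 fold change of TEAD3 was 0.38 (SE 0.13, 95% interval 0.06 to 0.70) and did not pass the test (limma adjusted p = 0.0512). It passed without NC 1 (limma adjusted p = 0.0180) and with limma-voom on the recovered reads (log2 fold change 0.44, adjusted p = 0.0233), and after GC adjustment it was -0.037 (SE 0.07, limma adjusted p = 0.717).

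In the deposited values the makeup of TEAD RNA thus differed between the groups, and its sum was higher in every siPSCA library. The summed FPKM of the 4 genes was 61.9, 61.6 and 58.9 in NC and 68.7, 70.6 and 70.3 in siPSCA. TEAD1 made up 45.7%, 46.9% and 52.3% of the sum in NC and 35.5%, 35.9% and 37.0% in siPSCA. TEAD2 made up 23.8%, 26.6% and 25.0% in NC and 31.4%, 31.6% and 33.6% in siPSCA. Both shares separated the groups, and TEAD1 stayed the most abundant TEAD gene in every library. The log2 ratio of TEAD4 to TEAD1, the genes at the ends of the GC range within the family, averaged -2.27 ± 0.27 for NC and -1.51 ± 0.14 for siPSCA (SD, n = 3 each). The difference was 0.76 (exact permutation p = 0.1, 0.133 adjusted over the 4 ratios). The GC-adjusted log2 fold changes of TEAD1, TEAD2, TEAD3 and TEAD4 were 0.14, 0.17, -0.037 and 0.06. Those of TEAD1, TEAD2 and TEAD4 thus lay on the same side of 0. The shares and the sum were not computed from GC-adjusted values.

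**Figure D3:**
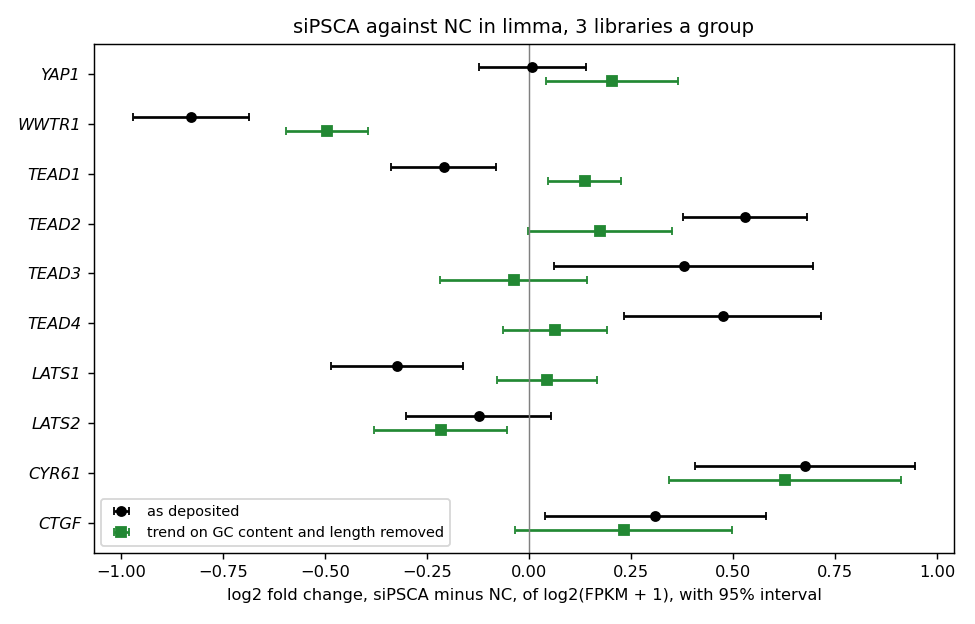
Log2 fold change of siPSCA against NC (x axis) with its 95% interval from limma for the 10 genes, as deposited (black circles) and after GC adjustment (green squares). WWTR1 lies below 0 and CYR61 above 0 in both, the values of TEAD2 and TEAD4 move toward 0, and those of TEAD1, TEAD3 and LATS1 change sign.

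LATS1 and LATS2 encode the kinases that phosphorylate YAP and TAZ. LATS1 (ENSG00000131023; chromosome 6, 149658153 to 149718256, minus strand) had an FPKM of 6.47, 7.01 and 7.33 in NC and 5.01, 5.48 and 5.54 in siPSCA. All siPSCA libraries lay below the NC libraries. The mean fell from 6.94 ± 0.435 to 5.34 ± 0.293 (SD, n = 3 each), with a log2 fold change of -0.32 (SE 0.07, limma adjusted p = 0.00952). LATS1 passed in all 6 fits without a library. Its GC content of 39.7% is the lowest of the 10 genes, tested genes near it had a median log2 fold change of -0.28, and the GC-adjusted value of LATS1 was 0.044 (SE 0.05, limma adjusted p = 0.526).

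LATS2 (ENSG00000150457; chromosome 13, 20973032 to 21061547, minus strand), itself a target of YAP and TAZ in many cells, had an FPKM of 4.43, 4.68 and 5.01 in NC and 3.92, 4.59 and 4.21 in siPSCA. The groups overlapped through siPSCA 2. The means of 4.71 ± 0.290 (SD, n = 3) and 4.24 ± 0.336 (SD, n = 3) gave a log2 fold change of -0.12 (SE 0.07, 95% interval -0.30 to 0.05, limma adjusted p = 0.202). After GC adjustment LATS2 was lower, by a log2 fold change of -0.22 (SE 0.07, limma adjusted p = 0.0447), a call that was lost without NC 3 (-0.19, adjusted p = 0.0835). LATS1 exceeded LATS2 per length by 1.46, 1.50 and 1.47 times in NC and by 1.28, 1.19 and 1.32 times in siPSCA. The log2 ratio of LATS2 to LATS1 averaged -0.56 ± 0.02 for NC and -0.33 ± 0.07 for siPSCA (SD, n = 3 each), a difference of 0.23 (exact permutation p = 0.1, 0.133 adjusted over the 4 ratios). After GC adjustment the order of the fold changes turned, at -0.22 for LATS2 and 0.044 for LATS1.

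CYR61 and CTGF encode secreted matricellular proteins of the CCN family and are among the best known targets of YAP, TAZ and TEAD. CYR61 (ENSG00000142871; chromosome 1, 85580761 to 85583962, plus strand) rose. Its FPKM was 5.75, 6.90 and 5.01 in NC and 10.7, 9.88 and 9.23 in siPSCA, on 212 to 446 reads per library. Every siPSCA library lay above every NC library. The means were 5.89 ± 0.952 for NC and 9.95 ± 0.755 for siPSCA (SD, n = 3 each), a ratio of 1.69, with a log2 fold change of 0.68 (SE 0.11, 95% interval 0.41 to 0.95, limma adjusted p = 0.00452). Tested genes near the GC content of CYR61, 50.3%, had a median log2 fold change of 0.059, and its GC-adjusted log2 fold change was 0.63 (SE 0.12, limma adjusted p = 0.00839), or 0.51 without NC 3 (adjusted p = 0.00587). It passed in all 6 fits without a library, with log2 fold changes from 0.58 to 0.78.

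CTGF (ENSG00000118523; chromosome 6, 131948176 to 131951373, minus strand), the gene of the upstream window with 3 copies of GGAATG, was expressed at a low level and did not pass the test. Its FPKM was 0.992, 0.737 and 0.869 in NC and 1.47, 1.35 and 1.13 in siPSCA, on 39, 30 and 35 reads and on 58, 56 and 48 reads. The siPSCA libraries lay above the NC libraries. The means were 0.866 ± 0.128 for NC and 1.31 ± 0.172 for siPSCA (SD, n = 3 each), a ratio of 1.52, and CTGF reached the minimum FPKM through the siPSCA libraries. The log2 fold change was 0.31 (SE 0.11, 95% interval 0.04 to 0.58, limma adjusted p = 0.0581) on the log2(FPKM + 1) scale, which understates the change of a gene at this level. On the recovered reads, with limma-voom, its log2 fold change was 0.62 (adjusted p = 0.0422), a call that is not taken as support because the gene was tested through the group in which it is higher. After GC adjustment the log2 fold change of CTGF was 0.23 (SE 0.11, limma adjusted p = 0.142).

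Whether the 2 targets differed in their response could not be decided. CTGF had 30 to 58 reads and reached the FPKM minimum only through the siPSCA libraries. Comparing 3 libraries with 3 gives no exact p under 0.1. The log2 ratio of CTGF to CYR61 averaged -2.76 ± 0.40 for NC and -2.93 ± 0.09 for siPSCA (SD, n = 3 each), and the groups overlapped (difference -0.16, exact permutation p = 0.6). Leaving out a library moved this difference between -0.40 and -0.05. CYR61 exceeded CTGF per length by 5.79, 9.37 and 5.77 times in NC and by 7.33, 7.33 and 8.20 times in siPSCA.

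**Figure D4:**
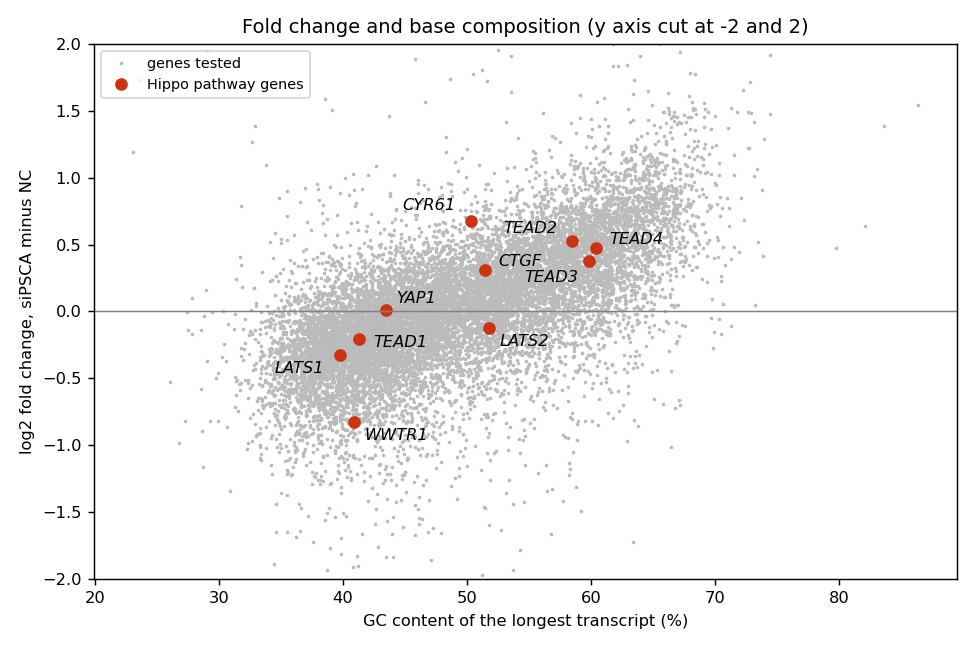
Log2 fold change of siPSCA against NC (y axis) against the GC content in percent of the longest transcript (x axis) for all tested genes (grey) and the 10 Hippo pathway genes (red); 21 genes lie beyond the plotted range of -2 to 2. TEAD1, LATS1, TEAD2, TEAD3 and TEAD4 lie within the grey band, while WWTR1 lies toward its lower edge and CYR61 toward its upper edge.

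By FPKM, which is per length and so allows genes to be set side by side, the order in NC was YAP1, TEAD1, WWTR1, TEAD2, TEAD3, LATS1, TEAD4, CYR61, LATS2 and CTGF. The libraries of neighbours overlapped for LATS1 with TEAD4 and for TEAD4 with CYR61. In siPSCA the order was YAP1, TEAD1, TEAD2, TEAD3, WWTR1, CYR61, TEAD4, LATS1, LATS2 and CTGF, and TEAD3 overlapped with WWTR1 and CYR61 with TEAD4. WWTR1 thus stood above TEAD2 and TEAD3 in every NC library and below TEAD2 in every siPSCA library. The mean FPKM of TEAD1 stood above that of 89.9% of all tested genes, that of WWTR1 above 82.2%, that of LATS2 above 41.3% and that of CTGF above 2.48%.

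The protein-coding genes with the pattern nearest to YAP1 over the 6 libraries were PDPR, GALNT11 and AP3M1, with root mean square differences of 0.0195, 0.0226 and 0.0230 in centred log2(FPKM + 1) among 11079 genes. Those nearest to CTGF were MRPL40, SPSB1 and RHBDL3, with differences of 0.0260, 0.0292 and 0.0389. Apart from CD37, genes whose spans overlap a member had at most 12 reads in any library, the highest counts being those of WWTR1-AS1 and of DKKL1, which lies across from TEAD2.

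Among the listed genes upstream of LATS, more fell than rose. This list, and those of partners and targets below, were chosen with earlier results of these data known. Their counts are a description and no test of the pathway. Of 30 kinases and scaffolds of the pathway other than LATS1 and LATS2, 28 were tested and 21 (75.0%) passed, where 50.7% of all tested genes did. Of these 15 were lower and 6 higher, and the median log2 fold change of the list was -0.25, against 0.01 over all genes. After GC adjustment 17 passed (60.7%), where 40.0% of all genes did, 12 lower and 5 higher, with a median of -0.09 against 0.05, and 16 passed both tests with the same sign. WWC3, counted as lower in both tests, reached the FPKM minimum only through NC, where it is higher. Its mean FPKM was 1.39 in NC and 0.893 in siPSCA. The unadjusted call of WWC3 held in 1 of the 6 fits without a library and is not taken as support. STK4, the gene of MST1, had an FPKM of 12.7, 13.5 and 14.8 in NC and 9.50, 9.19 and 10.3 in siPSCA. STK3, the gene of MST2, had 4.57, 4.43 and 5.60 in NC and 2.50, 2.81 and 2.83 in siPSCA. Both MST kinase genes lay lower in every siPSCA library, with log2 fold changes of -0.46 for STK4 (limma adjusted p = 0.00414) and -0.66 for STK3 (limma adjusted p = 0.00300). The GC-adjusted log2 fold changes were -0.20 for STK4 and -0.21 for STK3.

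Their partners showed both directions. MOB1B, a cofactor of LATS kinases, fell by 0.61 on the log2 scale and by 0.22 after GC adjustment. SAV1, the MST scaffold, fell by 0.26, and its GC-adjusted value of -0.054 did not pass (limma adjusted p = 0.269). FAT4, a large protocadherin at the top of the pathway, fell from 3.18 ± 0.196 to 1.62 ± 0.0643 (SD, n = 3 each) FPKM, a log2 fold change of -0.67 (limma adjusted p = 0.00140) and of -0.41 after GC adjustment. NF2, the gene of the scaffold Merlin that brings LATS to the membrane, had an FPKM of 11.2, 11.7 and 9.96 in NC and 16.7, 16.8 and 16.2 in siPSCA. NF2 was thus higher in every siPSCA library, with a log2 fold change of 0.56 (limma adjusted p = 0.00183) and of 0.36 after GC adjustment (adjusted p = 0.00222). MAP4K5, STRN, TAOK1 and WWC2 also fell, by 0.66, 0.66, 0.64 and 0.59 on the log2 scale, with GC-adjusted values of -0.28, -0.27, -0.20 and -0.32. TAOK2 rose by 0.63, or 0.19 after GC adjustment, so that TAOK1 and TAOK2, kinases that act on MST kinases, moved in opposite directions.

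**Figure D5:**
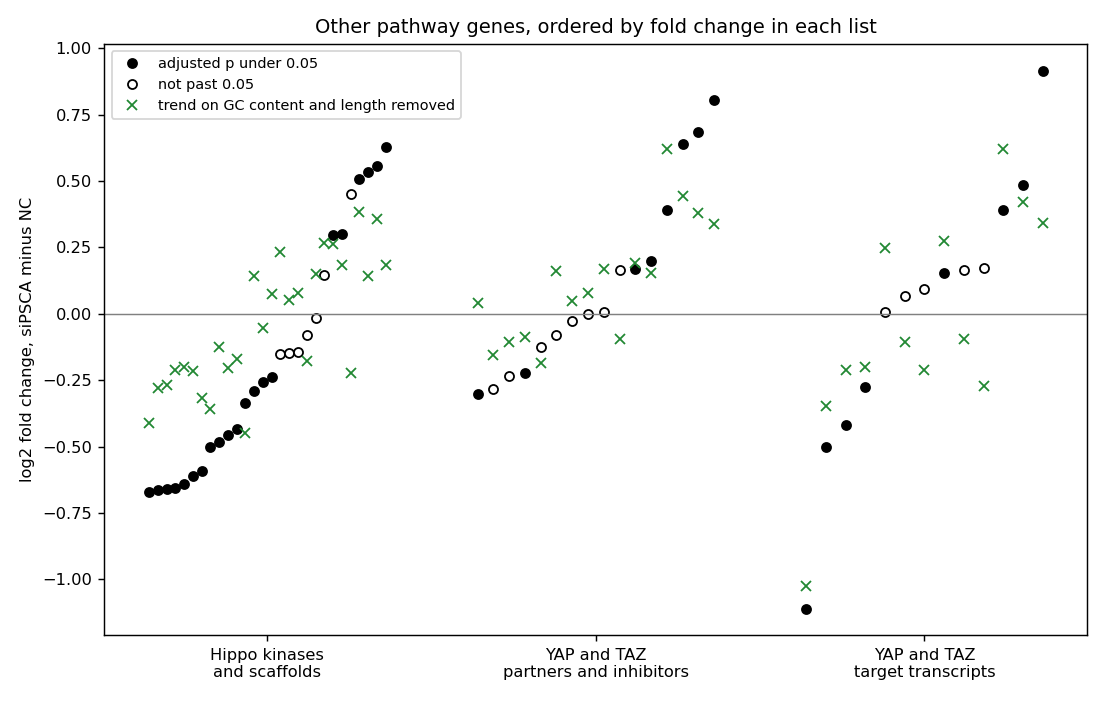
Log2 fold change of siPSCA against NC (y axis) for the tested genes of 3 lists (x axis), ordered within each list, with filled circles for an adjusted p under 0.05, open circles for the others and green crosses for the value after GC adjustment. Most kinases and scaffolds lie below 0 (15 lower and 6 higher past the test), and the other lists spread to both sides.

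Among 19 other partners and inhibitors of YAP and TAZ, 16 were tested and 8 (50.0%) passed, close to the 50.7% of all tested genes, 6 higher and 2 lower, with a median log2 fold change of 0.00. The number that passed was 4 without siPSCA 1, 5 without siPSCA 2 and 5 without NC 2. After GC adjustment 8 passed as well, 7 higher and 1 lower, with a median of 0.12, where 40.0% of all genes passed. SFN, a 14-3-3 protein of the family that holds phosphorylated YAP in the cytoplasm, rose from 115.8 ± 9.75 to 203.1 ± 17.5 (SD, n = 3 each) FPKM, a log2 fold change of 0.81 (limma adjusted p = 0.00150) and of 0.34 after GC adjustment. The other 14-3-3 genes that passed were less stable. YWHAZ fell by 0.30 on the log2 scale, a call lost without siPSCA 1 or siPSCA 2, and its GC-adjusted value was 0.040 (limma adjusted p = 0.457). YWHAH and YWHAG rose by 0.20 and 0.17, with GC-adjusted values of 0.15 and 0.19, and lost their calls in 2 and 4 of the 6 fits without a library, respectively.

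Among the listed genes of the step that marks YAP for degradation, only CSNK1D passed in all 6 fits without a library and after GC adjustment. CSNK1D, a kinase of that step, rose by 0.64 on the log2 scale, or 0.44 after GC adjustment. CSNK1E, its relative, rose by 0.68, but lost the call in 4 of the 6 fits without a library and was at 0.43 without NC 3. Its GC-adjusted value of 0.38 did not pass (limma adjusted p = 0.117). FBXW11, part of a ubiquitin ligase that acts after these kinases, fell by 0.22 (limma adjusted p = 0.0116), a call lost without siPSCA 2 and after GC adjustment (-0.086, limma adjusted p = 0.214). PTPN14, a phosphatase that binds YAP, had an FPKM of 3.67, 3.64 and 3.92 in NC and 5.27, 5.23 and 5.14 in siPSCA. Its log2 fold change was 0.39 (limma adjusted p = 0.00272), and GC adjustment raised it to 0.62 (adjusted p = 0.000746).

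Known target transcripts other than CYR61 and CTGF moved in both directions in equal number. Of 19 listed, 13 were tested and 8 (61.5%) passed, where 50.7% of all tested genes did, 4 higher and 4 lower, with a median log2 fold change of 0.09. Without siPSCA 1 the number was 5. After GC adjustment 9 passed (69.2%), where 40.0% of all genes did, 5 higher and 4 lower, with a median of -0.11. NT5E, a surface ectonucleotidase, had an FPKM of 35.5, 37.7 and 44.9 in NC and 17.6, 17.3 and 18.0 in siPSCA. It was lower in every siPSCA library, with a log2 fold change of -1.11 (limma adjusted p = 0.000722) and of -1.02 after GC adjustment. This was the largest change among the 13 tested genes of the list. F3, the gene of tissue factor, and ASAP1 fell by 0.50 and 0.42, with GC-adjusted values of -0.35 and -0.21. CRIM1 fell by 0.28, but kept its call in only 1 of the 6 fits without a library. Its GC-adjusted value of -0.20 did not pass (limma adjusted p = 0.0738). GADD45A, a stress-responsive gene, and PTPN14 rose by 0.48 and 0.39 and passed in all 6 fits without a library, with GC-adjusted values of 0.42 and 0.62. FJX1 rose by 0.91, a call lost without siPSCA 1, and its GC-adjusted value was 0.34, or 0.22 without NC 3. MYOF rose by 0.15, or 0.27 after GC adjustment, and kept the first call in only 1 of the 6 fits without a library. AMOTL2, AXL, DOCK5, ARHGEF17 and NUAK2 did not pass the test, with log2 fold changes of 0.16, 0.07, 0.0046, 0.17 and 0.09. After GC adjustment DOCK5 and ARHGEF17 passed, at 0.25 and -0.27. AMOTL2, AXL and NUAK2 then turned sign, at -0.095, -0.11 and -0.21, and did not pass. ANKRD1, IGFBP3, FOXF2, CCDC80, TGFB2 and RBMS3 lay under the FPKM minimum, FOXF2 with no read in any library. IGFBP3 had 30, 34 and 48 reads in NC and 16, 4 and 2 reads in siPSCA, a ratio of mean FPKM of 0.196. These IGFBP3 values are given as a description, without a test.

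The markers of the sort were present in all libraries. CD44 fell from 82.6 ± 4.36 to 60.7 ± 1.51 (SD, n = 3 each) FPKM, a log2 fold change of -0.44 (limma adjusted p = 0.00193) and of -0.25 after GC adjustment, and EPCAM, which encodes CD326, averaged 107.1 ± 14.4 (SD, n = 3) and 95.0 ± 2.10 (SD, n = 3) FPKM, with a log2 fold change of -0.16 that did not pass (limma adjusted p = 0.199). Of 10 markers of fibroblasts, endothelial and blood cells, cells that a sorted cell line should not hold, only COL1A1 reached the FPKM minimum, with means of 4.71 in NC and 6.16 in siPSCA (log2 fold change 0.35, limma adjusted p = 0.111, and -0.021 after GC adjustment). The fibroblast genes COL1A2, DCN and LUM had at most 2 reads in any library, and CD68 had none. COL3A1, PDGFRB, PTPRC, PECAM1 and VWF had at most 18, 16, 7, 20 and 23 reads. Of these, COL3A1 and VWF lay higher in every siPSCA library. The summed FPKM of these 10 markers, nearly all of it COL1A1, ranged between 3.71 and 6.04 for NC and between 6.39 and 6.96 for siPSCA.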

How the data were processed

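The authors deposited a table of FPKM values with gene length for 58735 genes, positions being those of GENCODE release 29 on GRCh38, the build in the submitters' processing notes; libraries were made with the NEBNext Ultra kit and read in pairs. The aligner, counting program and use of strand are not given in the sources used here. FPKM multiplied by the deposited gene length gave whole reads for 100% of values, within 0.1 read. Titles of siPSCA 2 and 3 name another cell number than the other labels, and they were kept.

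limma 3.58.1 in R 4.3.3 (lmFit, eBayes with a trend) was fitted to log2(FPKM + 1) of genes whose FPKM averaged 1 or more. GC adjustment removed, from each library's deviations, splines on the GC content of the longest transcript (5 degrees of freedom) and the log2 deposited gene length (4). It covered 99.97% of tested genes. Ratios were compared by exact permutation, 2-sided. Promoter sequences are RefSeq's. Python 3.11.15 was used elsewhere. The limma fit to log2(FPKM + 1) was tested on simulated counts that held no GC trend. The genes and lists were chosen with earlier results of these data known. The genes named were the 10 members, up to 8 genes per list with the largest fold changes past the test, all tested target transcripts, the 3 genes nearest in pattern to YAP1 and to CTGF and genes overlapping a member. SAV1, STK4, NF2, WWC3, NOV and the cell markers were named after their values were seen. Alternatives were TPM, a pseudocount of 0.1, no minimum, limma-voom on reads, a replicate block, GC adjustment with and without the block and leaving out each library; GC adjustment without NC 3 was added after the data had been seen.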

Additional observations from a re-analysis of the deposited data

How the results depend on the processing

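Of 140 alternative fits of the 10 members, 115 left direction and call as they were and 12 turned the sign. Among fits that kept the sign, 6 gained a call and 7 lost it. The fits that turned the sign of LATS1 also lost its call, as did that of TEAD1 with GC adjustment and the block (limma adjusted p = 0.0685). The log2 fold change of YAP1 was -0.039 as TPM and ranged from -0.033 to 0.042 without a library. With GC adjustment alone, with the block added and without NC 3, TEAD1 was 0.14, 0.14 and 0.11, TEAD3 -0.037, -0.037 and -0.083, and LATS1 0.044, 0.044 and 0.017. The members called numbered 3 with GC adjustment and the block. Kinases and scaffolds called then numbered 13, and partners 5, as with no FPKM minimum (5). Leaving out 1 library gave 4 to 10 partners, with 4 without siPSCA 1, 5 without siPSCA 2 and 5 without NC 2, and 5 to 8 targets, with 5 without siPSCA 1. The cause of these shifts was not tested. Over all genes, 7001 were called, 4611 with GC adjustment and the block, 4627 without siPSCA 1 and 4734 without siPSCA 2. Deviations of same-numbered libraries correlated at 0.10, 0.01 and 0.13. NC 1 and NC 3 correlated best with the siPSCA library of the same number, and NC 2 with siPSCA 1 (0.04). Deviations were taken from group means, which constrains these values, so whether the numbers pair the samples is not settled. The replicate block called 7 members, TEAD3 among them, and 6725 genes. Depth limits CTGF, at 30 to 58 reads.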

Other observations

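Of the other genes of the CCN family, NOV (CCN3), a secreted relative of CYR61 and CTGF, was higher in every siPSCA library. Its FPKM was 0.757, 0.602 and 0.499 in NC and 2.12, 1.77 and 2.28 in siPSCA. NOV reached the FPKM minimum only through the siPSCA libraries, so these values are given as a description, without a test. WISP1, WISP2 and WISP3, the remaining members of that family, lay under the minimum.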
